A study of Mus musculus with 6 samples.

Results

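Clade A serpins are a family of secreted proteins, most of them made by hepatocytes, and 10 of them are described here in mouse liver 1 h after interleukin-6 (IL-6): Serpina1c, Serpina3g, Serpina3k, Serpina3m, Serpina3n, Serpina6, Serpina7, Serpina9, Serpina10 and Serpina12. They were taken by gene symbol from the platform's gene table, among 19938 genes in all. Of the 10, 7 had a probe set of their own, each of them exactly 1. A probe set counts as a gene's own where that table gives it only that gene's symbol. Whether its probes also match close copies of the gene was not tested. Serpina3g, Serpina3k and Serpina3m were in no row of that table, by symbol or by gene ID, and were not analysed here. Another 2 probe sets each carried the 5 symbols Serpina1a to Serpina1e and are given as shared. The IL-6 group was 3 livers of male C57BL6 mice, 10 weeks old, fasted for 16 h and injected intraperitoneally with 100 ng of IL-6 per mouse. The saline group was 3 livers of mice of the same strain, sex, age and fast, injected with saline, and every liver was collected 1 h after injection. Each sample was measured on 1 one-colour Affymetrix array. The labels do not say outright whether each array held a different mouse, and p-values cover the spread among these 6 arrays, which may be technical.

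A serpin inhibitor offers a protease an exposed loop as bait, and when the protease cuts it, the serpin snaps into a new shape that traps the enzyme in a covalent complex. Some clade A members have lost this activity and carry hormones instead, releasing them when the loop is cut. In the mouse the Serpina1 and Serpina3 genes have multiplied into runs of close copies, where humans have a single gene of each. The human counterparts SERPINA1 (alpha-1-antitrypsin) and SERPINA3 (alpha-1-antichymotrypsin) are classical acute-phase proteins of the liver. IL-6 acts through gp130 and STAT3, which binds DNA elements of the form TTCNNNGAA.

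All values are deposited log2 expression values made with RMA, in which a difference of 1 is a doubling. Hepatocyte markers were bright, with array means over 10 markers of 12.61 to 12.65 in IL-6 livers and 12.55 to 12.64 in saline livers, and none of the 10 was called. The 10 Kupffer cell and macrophage markers averaged 6.40 to 6.68 in IL-6 livers and 6.30 to 6.48 in saline livers, and 0 were called. Of these 10, 9 had a positive log2 difference, against 10188 of 19938 genes. An unadjusted limma p under 0.05 was met by 2 of them, against 1319 of 19938 genes. The 10 neutrophil markers averaged 4.21 to 4.47 in IL-6 livers and 4.34 to 4.42 in saline livers, and 9 measured T cell markers 4.76 to 4.93 in IL-6 livers and 4.81 to 4.91 in saline livers, with 0 called in each list. Over all probe sets, arrays of a group correlated at 0.989 to 0.9909 and arrays of different groups at 0.9869 to 0.9903. The second principal component set IL-6 replicate 3 and saline replicate 2 apart from the other arrays, so results that turn on them are given without them. In a whole-liver sample, less RNA per cell and fewer cells of a type cannot be told apart. Levels of different probe sets do not rank transcripts by abundance, so differences are set side by side and levels only serve to mark dim or very bright probe sets.

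Of the 7 measured members, 2 rose, 1 fell and 4 did not pass. Serpina10 rose 3.03-fold and Serpina3n 1.94-fold, though Serpina3n lost its call in 3 of 14 other settings of the test. Serpina9, on a dim probe set, fell to 0.720 of its saline level. Its call was lost in 11 of the 14 settings, among them whichever array was left out. The alpha-1-antitrypsin probe sets had differences near 0. They were among the brightest of the array, and whether a rise could register at such levels was not tested. The hormone carriers Serpina6 and Serpina7, and Serpina12, varied widely between saline livers and did not pass. A gene was called at a limma adjusted p under 0.05 over all genes, which 0.386% of genes met as higher and 0.0351% as lower. The median log2 difference was 0.43 over the 7 members and 0.00264 over all genes. That median of the members is the value of Serpina12 itself, which did not pass and was -0.03 without saline replicate 1. It therefore does not describe the family as a whole. The groups did not overlap for 3 of the 7, against 11.6% of all genes.

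**Figure D1:**
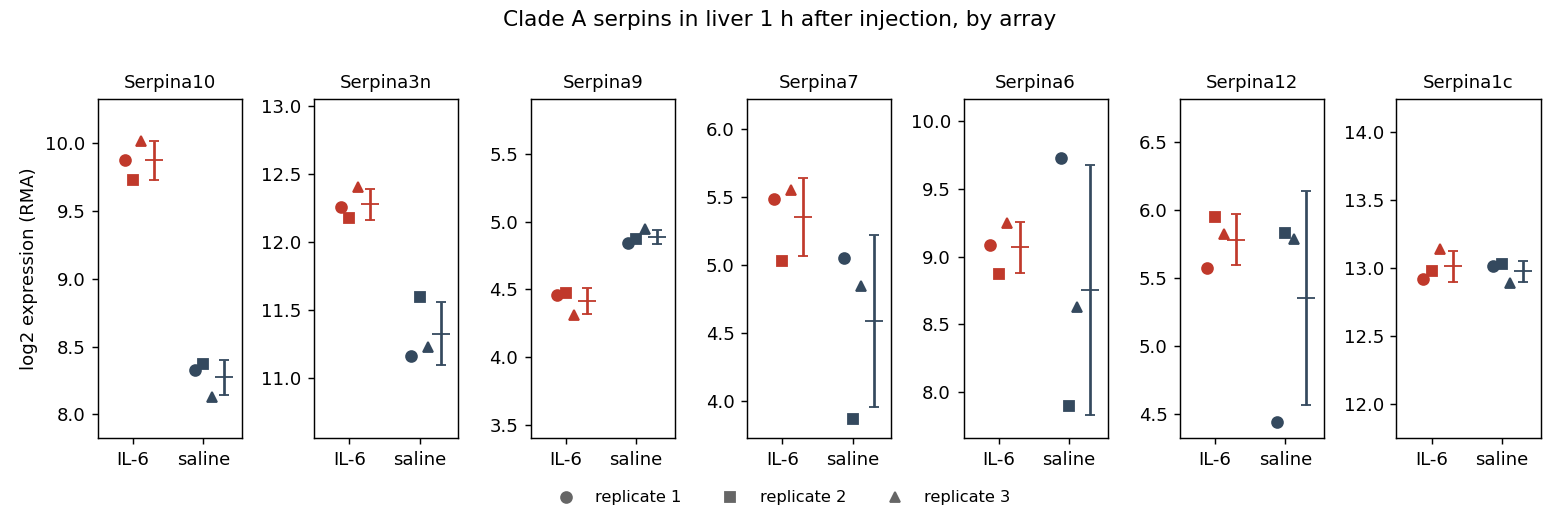
Log2 expression of the 7 measured clade A serpins in each array (points, shaped by replicate number) with the mean and SD of 3 arrays beside them, IL-6 left of saline; every panel spans the same number of log2 units. The groups are separate for Serpina10, Serpina3n and Serpina9, while Serpina6, Serpina7 and Serpina12 are spread widely among saline arrays.

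The promoters of Serpina3n, which rose, and Serpina1c, which did not pass, are shown to set a called gene beside one with a difference near 0. RefSeq promoter windows on GRCm38.p6, each of 300 bases with 250 before the annotated start and 50 from it on, were present for 5 of the 10 members, Serpina1c, Serpina3g, Serpina3n, Serpina7 and Serpina12, so Serpina10, which rose most, has no sequence here. Whether these promoters bear on the differences was not tested. The windows below run 5′ to 3′ on the gene's strand. Serpina3n lies at chr12:104406458-104406757 on the plus strand and Serpina1c at chr12:103904901-103905200 on the minus strand. Capitals mark matches to the STAT core TTNNNNNAA in Serpina3n and to the HNF1 recognition core GTTAAT in Serpina1c.
Serpina3n: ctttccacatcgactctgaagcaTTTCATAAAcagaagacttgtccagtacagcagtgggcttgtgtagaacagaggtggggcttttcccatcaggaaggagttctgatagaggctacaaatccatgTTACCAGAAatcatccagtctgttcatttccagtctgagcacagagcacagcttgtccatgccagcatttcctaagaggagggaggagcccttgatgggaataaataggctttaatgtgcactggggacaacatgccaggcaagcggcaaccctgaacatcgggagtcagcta
Serpina1c: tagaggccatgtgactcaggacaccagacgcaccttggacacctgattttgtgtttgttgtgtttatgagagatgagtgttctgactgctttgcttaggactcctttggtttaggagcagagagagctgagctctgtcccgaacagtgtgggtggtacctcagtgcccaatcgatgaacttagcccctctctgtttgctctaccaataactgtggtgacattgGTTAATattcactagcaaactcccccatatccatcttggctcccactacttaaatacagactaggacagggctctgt

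In these windows 4 motifs were searched on both strands, the STAT dimer element TTCNNNGAA, the wider STAT core TTNNNNNAA that contains it, the C/EBP core TTGCNNAA and the HNF1 recognition core GTTAAT. C/EBP and HNF1 are transcription factor families of hepatocytes. The element TTCNNNGAA was in 8.3% of all 32851 windows, TTNNNNNAA in 59%, TTGCNNAA in 10.8% and GTTAAT in 7.1%. The Serpina3n window held no TTCNNNGAA and 2 matches to the STAT core, which begin 227 and 123 bases before the start. The Serpina1c window held none of the STAT or C/EBP letters and 1 GTTAAT, 27 bases before the start. Of 19 clade A serpin genes with a window, 17 held TTNNNNNAA and 5 held TTCNNNGAA. Serpina1f and Serpina11, which were not called, were among those with TTCNNNGAA. Each of the 2 overlapping Serpina7 windows held 2 STAT cores, 1 C/EBP core and 1 GTTAAT, and Serpina12 held 1 STAT core and 1 C/EBP core. Among the members with a window, TTCNNNGAA was in that of Serpina3g, whose transcript was not analysed here. A match is a description of letters and not a binding site.

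Serpina10 encodes the protein Z-dependent protease inhibitor, which blocks coagulation factor Xa on membranes with protein Z as its partner, and factor XIa without it. Its log2 expression was 9.87, 9.73 and 10.01 in the IL-6 livers, against 8.33, 8.37 and 8.13 in the saline livers. Every IL-6 array lay above every saline array, by more than the range of either group. The means were 9.87 ± 0.14 in IL-6 livers and 8.27 ± 0.13 in saline livers (SD, n = 3 each). The log2 difference was 1.60 ± 0.10 (standard error, limma adjusted p = 0.000115), a 3.03-fold rise with a 95% interval of 2.59 to 3.54. The call held whichever array was left out, with limma adjusted p up to 0.00206. It also held when all 35556 probe sets were tested in place of 1 per gene (limma adjusted p = 0.00983), where 0.0450% of probe sets were called higher.

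Of the partners and targets of this inhibitor, Proz and F11 are given here, and neither passed the test. No value is given here for F10, which encodes factor X. For Proz, which encodes protein Z, the difference was 0.13 ± 0.08 on the log2 scale (limma adjusted p = 0.877). F11, which encodes factor XI, had a difference of -0.32 ± 0.09, at 7.25, 7.08 and 7.21 in IL-6 livers and 7.46, 7.66 and 7.38 in saline livers (limma adjusted p = 0.420). The F11 groups did not overlap, which held for 11.6% of all genes, and the difference was small beside that of Serpina10.

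Serpina3n is a mouse counterpart of human alpha-1-antichymotrypsin and inhibits serine proteases of leukocytes, among them granzyme B. Its log2 expression was 12.26, 12.18 and 12.40 in IL-6 livers, against 11.16, 11.59 and 11.23 in saline livers. The 3 IL-6 arrays lay above all saline arrays, and the nearest saline array was replicate 2. The means were 12.28 ± 0.11 in IL-6 livers and 11.33 ± 0.23 in saline livers (SD, n = 3 each). The log2 difference was 0.95 ± 0.12 (limma adjusted p = 0.00903), a 1.94-fold rise with a 95% interval of 1.61 to 2.33. The difference was 0.87 to 1.09 whichever array was left out. Its call was lost without IL-6 replicate 1 (limma adjusted p = 0.0516), without IL-6 replicate 3 (0.0569), and when every probe set was tested (0.125).

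Serpina1c is a copy of alpha-1-antitrypsin, the plasma inhibitor of neutrophil elastase. Its probe set read 12.92, 12.98 and 13.14 in IL-6 livers and 13.01, 13.03 and 12.89 in saline livers. The groups overlapped, with IL-6 replicate 3 above every saline array and saline replicate 3 below every IL-6 array. The log2 difference was 0.04 ± 0.09 (limma adjusted p = 0.976), and its 95% interval ran from 0.898-fold to 1.17-fold. Serpina1d, the other copy with a probe set of its own, read 11.30, 11.36 and 11.45 in IL-6 livers and 11.42, 11.42 and 11.36 in saline livers, a difference of -0.03 ± 0.08 (limma adjusted p = 0.977).

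The probe sets shared by Serpina1a to Serpina1e are named for all 5 copies and cannot be assigned to any of them. Probe set 10402399 averaged 12.69 ± 0.02 in IL-6 livers and 12.70 ± 0.02 in saline livers, and probe set 10402409 13.12 ± 0.02 in IL-6 livers and 13.12 ± 0.002 in saline livers (SD, n = 3 each). Over all probe sets their log2 differences were -0.01 ± 0.06 and -0.004 ± 0.062 (limma adjusted p = 0.988 and 0.994). The 95% intervals were 0.895-fold to 1.10-fold and 0.900-fold to 1.11-fold. The levels of these shared probe sets were at percentiles 99.82 and 99.93 of all probe sets, and that of Serpina1c at 99.9 of all genes. Whether such bright probe sets could register a change was not tested, so these narrow intervals are not read as steady transcript levels. The copies also share promoter sequence. A stretch of 30 bases around the GTTAAT match was identical in all 5 genes, and in Serpina1c it lies at chr12:103904960-103904989 on the minus strand, with the match in capitals.
Serpina1a to Serpina1e: gtggtgacattgGTTAATattcactagcaa

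The STAT core and the C/EBP core were each in 4 of those 5 windows, all but that of Serpina1c, and TTCNNNGAA in 0 of 5. Serpina1d, which was not called, held both cores. The distance from GTTAAT to the annotated start was 21, 26, 27, 16 and 78 bases in Serpina1a, Serpina1b, Serpina1c, Serpina1d and Serpina1e.

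Serpina9, also called centerin, was named for its expression in germinal centre B cells in humans. Its log2 expression was 4.46, 4.48 and 4.31 in IL-6 livers, against 4.84, 4.88 and 4.95 in saline livers. Every IL-6 array was below every saline array, at levels near the 25th percentile of all genes (4.59). The means were 4.42 ± 0.09 in IL-6 livers and 4.89 ± 0.05 in saline livers (SD, n = 3 each), so that it fell by 0.47 ± 0.08 on the log2 scale (limma adjusted p = 0.0445). The direction held but the call was lost whichever array was left out (limma adjusted p 0.103 to 0.195), and with the replicate number as a block (0.148). Of 10 listed B cell markers 8 were measured, 0 were called and 0 had an unadjusted limma p under 0.05. Their mean level ran from 4.27 to 4.34 over IL-6 arrays and from 4.20 to 4.35 over saline arrays. The markers Cd79a and Ms4a1 averaged 3.59 and 3.55 in IL-6 livers and 3.54 and 3.79 in saline livers, below that 25th percentile. Cr2, Fcer2a and Bank1 were also below it in both groups. Pax5, Cd79b and Blk were above it, at 5.28, 5.20 and 4.67 in IL-6 livers and 5.29, 5.09 and 4.69 in saline livers.

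Serpina6 encodes corticosteroid-binding globulin, which carries glucocorticoids in plasma and inhibits no protease. Its log2 expression was 9.08, 8.87 and 9.25 in IL-6 livers, against 9.73, 7.90 and 8.63 in saline livers. The IL-6 arrays all fell inside the range of the saline arrays, which differed 3.55-fold from highest to lowest against 1.30-fold among IL-6 arrays. The SD was 0.19 in IL-6 livers and 0.92 in saline livers, and only 8 of 19938 genes had a larger SD among saline arrays. The log2 difference was 0.32 ± 0.36 (limma adjusted p = 0.947), with a 95% interval from 0.707-fold to 2.19-fold. Without saline replicate 2 it was -0.11, and without saline replicate 1 it was 0.81, so its sign rests on which saline array is kept.

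Serpina7 encodes thyroxine-binding globulin, a carrier of thyroid hormone, and lies on the X chromosome, apart from the other members. Its log2 expression was 5.49, 5.02 and 5.55 in IL-6 livers, against 5.05, 3.86 and 4.85 in saline livers. The groups overlapped by a narrow margin, between IL-6 replicate 2 and saline replicate 1, and saline replicate 2 was the low array. The means were 5.36 ± 0.29 in IL-6 livers and 4.59 ± 0.64 in saline livers (SD, n = 3 each), a log2 difference of 0.77 ± 0.27 that did not pass (limma adjusted p = 0.596). Without saline replicate 2 the difference was 0.41, and without that array and IL-6 replicate 3 it was 0.31.

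Serpina12 encodes vaspin, an inhibitor of kallikrein 7 described in adipose tissue. Its log2 expression was 5.58, 5.95 and 5.82 in IL-6 livers, against 4.44, 5.83 and 5.78 in saline livers. Saline replicate 1 stood alone at the low end, and the other saline arrays lay among the IL-6 arrays. The log2 difference was 0.43 ± 0.32 (limma adjusted p = 0.903), and without saline replicate 1 it was -0.03. Of 10 listed adipocyte markers 8 were measured and 0 called, 2 with an unadjusted limma p under 0.05 (1319 of 19938 over all genes), and their array means were 5.57 to 5.62 in IL-6 livers and 5.53 to 5.67 in saline livers. These 2 went opposite ways. Adipoq, which defines adipocytes, read 2.96, 3.27 and 3.33 in IL-6 livers and 2.93, 2.90 and 2.97 in saline livers, where the groups overlapped by a narrow margin. In both groups Adipoq and Lep were dim, below the 25th percentile of all genes (4.59). Plin1, a lipid droplet coat gene, read 5.445, 5.391 and 5.231 in IL-6 livers and 5.598, 5.573 and 5.500 in saline livers, with separate groups. Cidec, a lipid droplet gene of that list chosen here after its values were seen, was also lowest in saline replicate 1. It read 8.13, 8.27 and 8.02 in IL-6 livers and 7.24, 8.29 and 8.54 in saline livers. The listed markers did not share this pattern. Among saline arrays, Fabp4, Plin1, Plin4 and Pnpla3 were highest in replicate 1, Lep was lowest there, and Adipoq and Retn lay between. The part of any of these genes in the Serpina12 values was not tested.

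The 3 members that varied most had their extremes on the same pair of saline arrays. Saline replicate 1 had the highest Serpina6 and Serpina7 and the lowest Serpina12, and saline replicate 2 had the lowest Serpina6 and Serpina7 and the highest Serpina12 of the group. For Serpina12 this high end was nearly a tie, with 5.83 in saline replicate 2 and 5.78 in saline replicate 3. The same arrays were the ends of the saline group on the second principal component over all genes. Saline replicate 1 was at 9.65, replicate 2 at -11.6 and replicate 3 at 1.83, so the split of these arrays is not particular to serpins. Among saline arrays 13 genes had a larger SD than Serpina12 and 22 a larger SD than Serpina7. Among IL-6 arrays 2827 genes had a larger SD than Serpina12, 2797 than Serpina6 and 507 than Serpina7. The median SD of all genes was 0.101 in IL-6 livers and 0.096 in saline livers. An SD over 3 arrays is imprecise, and the difference in spread between the groups was not tested. For Serpina3n, 8410 genes had a larger SD among IL-6 arrays and 1287 among saline arrays, so this called gene too was among the more variable in saline livers. For Serpina10, 5770 genes had a larger SD among IL-6 arrays and 6317 among saline arrays, and for Serpina9 and Serpina1c more genes did so in both groups.

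**Figure D2:**
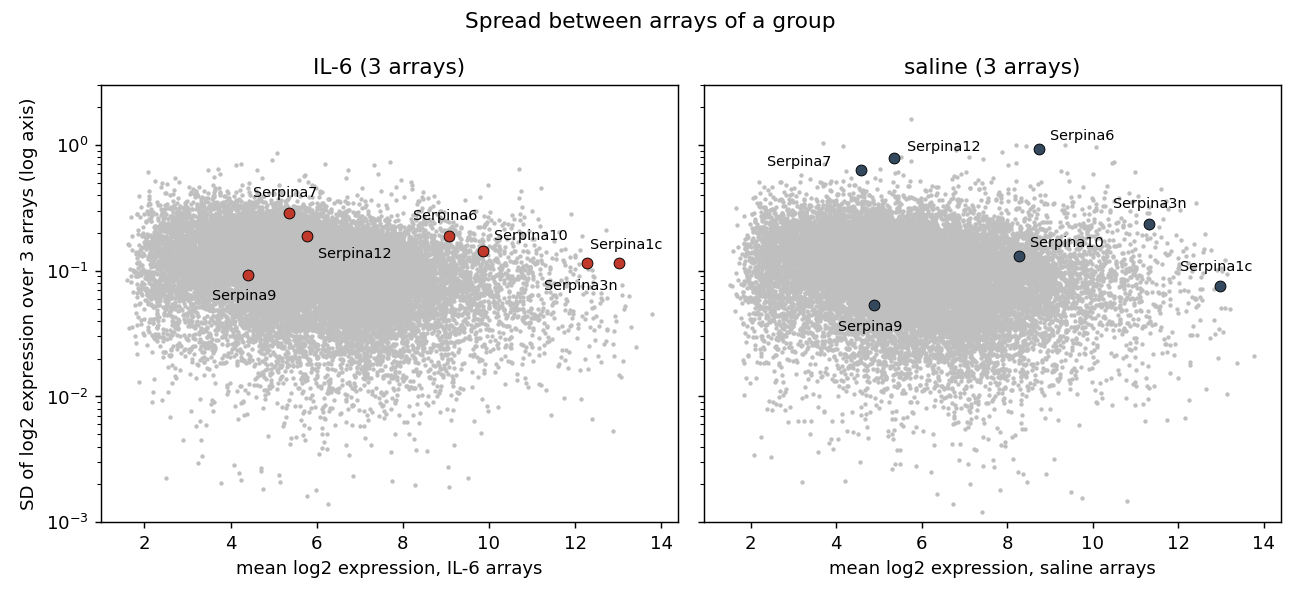
SD over the 3 arrays of a group (log axis) against mean log2 expression for 19938 genes (grey), with the measured clade A serpins marked, IL-6 left and saline right. Serpina6, Serpina7 and Serpina12 stand at the upper edge among saline arrays (SD 0.92, 0.64 and 0.79) and lower among IL-6 arrays (0.19, 0.29 and 0.19).

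All members but Serpina7 belong to a run of serpin genes on chromosome 12. From Serpina10 at one end to Serpina3n at the other, the RefSeq table lists 28 Serpina entries, 23 of them protein coding, and 14 had a probe set of their own. The genes that rose are the ends of that run because it was taken between them, so their place in it is not a result. The measured genes between them had log2 differences from -0.47 to 0.46. Next to Serpina10, Serpina6 did not pass, nor did the closest measured protein-coding genes outside the run, Ppp4r4 beyond Serpina10 (0.15 ± 0.16) and Gsc beyond Serpina3n (0.11 ± 0.08). The entries between Serpina3b and Serpina3n, where most Serpina3 copies lie, had no probe set of their own here, so the nearest neighbours of Serpina3n were not analysed here.

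**Figure D3:**
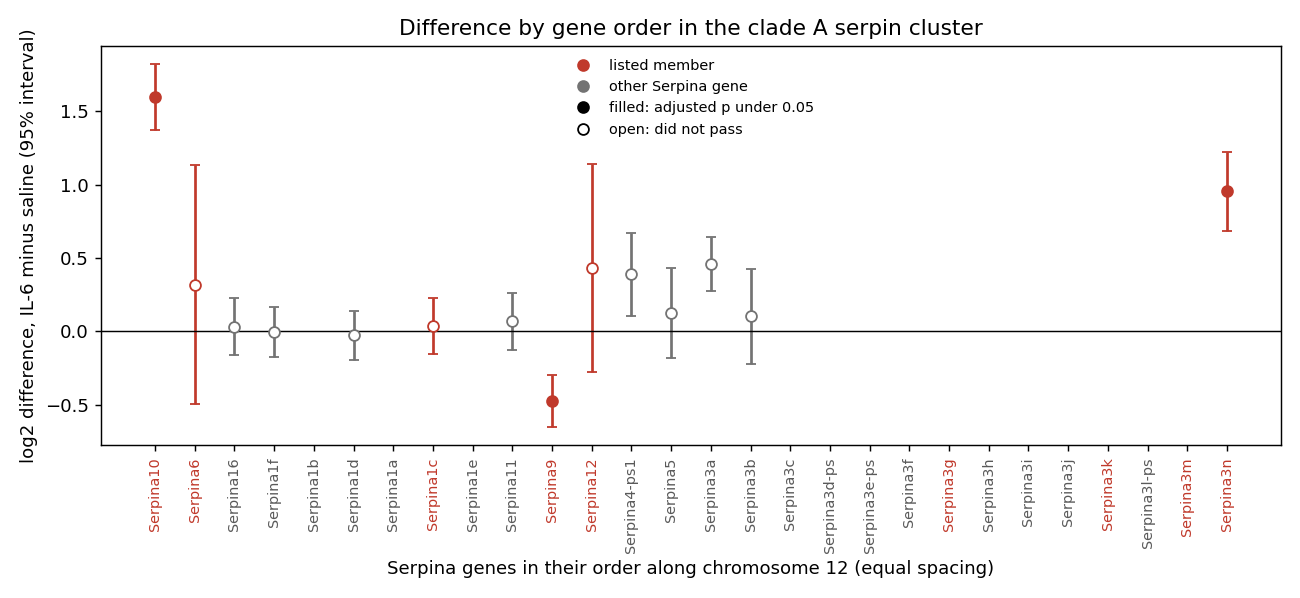
Log2 difference, IL-6 minus saline, with its 95% interval for each measured Serpina gene in the order of the RefSeq table along chromosome 12, equally spaced, with listed members red, other genes grey and filled points called; names without a point had no probe set of their own. Serpina10 (1.60) and Serpina3n (0.95), between which the genes were taken, rose, and the Serpina1 genes lie near 0. Serpina9 fell by 0.47, a call that was lost whichever array was left out.

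Besides the listed members, 8 further Serpina genes were measured and none was called. Serpina3a, a Serpina3 copy, read 4.87, 4.70 and 4.72 in IL-6 livers and 4.36, 4.33 and 4.22 in saline livers. Its probe set was dim, with a mean of 4.53 over all arrays, below the 25th percentile of all genes (4.59). Its groups did not overlap, and its difference of 0.46 ± 0.08 missed the threshold (limma adjusted p = 0.0599). Serpina4-ps1, a transcribed pseudogene, read 6.57, 6.99 and 6.48 in IL-6 livers and 6.39, 6.27 and 6.22 in saline livers, a difference of 0.39 ± 0.13 (limma adjusted p = 0.531). Serpina5, which encodes the protein C inhibitor, had a difference of 0.13 ± 0.14 (limma adjusted p = 0.945). The others, Serpina11, Serpina16, Serpina1d, Serpina1f and Serpina3b, had differences between -0.03 and 0.10. Serpina5, Serpina1f and Serpina3b were also below that percentile, so their small differences come from dim probe sets.

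Serpins of other clades and other protease inhibitors gave no call. Of 17 listed serpins of clades B to I, 15 were measured and 0 passed, with a median log2 difference of 0.04 and 1 unadjusted limma p under 0.05. Antithrombin (Serpinc1) had a difference of 0.05 ± 0.07, heparin cofactor II (Serpind1) -0.09 ± 0.09, antiplasmin (Serpinf2) 0.04 ± 0.08 and the C1 inhibitor (Serping1) 0.01 ± 0.08. In that list Serpinb8 (0.36 ± 0.14) and Serpinb1a (0.34 ± 0.22) had the smallest p (limma adjusted p = 0.652 and 0.879). Of 24 listed plasma inhibitors that are not serpins, 22 were measured and 0 passed, with a median of 0.05 and 5 unadjusted limma p under 0.05, against 1319 of 19938 over all genes. The groups did not overlap for 8 of the 22, all higher after IL-6, against 1227 of 19938 genes that were separate and higher. Among them Itih4, a plasma protein of the inter-alpha-inhibitor family, had a difference of 0.57 ± 0.11 with separate groups (limma adjusted p = 0.110), and Kng2, a kininogen, 0.36 ± 0.12 (0.531). Of 24 listed target proteases, partners and hormone receptors, 23 were measured and 0 passed, with a median of 0.03 and 1 unadjusted limma p under 0.05. Lrp1, a receptor that clears serpin complexes, had a difference of 0.19 ± 0.09 (limma adjusted p = 0.768).

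The genes whose values followed each called member most closely were ranked by Pearson's r over the 6 arrays, a measure that the shift between groups dominates. For Serpina10 they were Ell, Gadd45a, Il17ra, Steap4 and Socs3 (r from 0.996 to 0.998), of which all but Ell were called higher. For Serpina3n they were Orm2, Mx2, Fgb, Fgg and Olfr450 (0.991 to 0.995), of which Orm2 and Mx2 were called higher. The acute-phase genes Orm2, Fgb and Fgg had log2 differences of 2.44, 0.30 and 0.42. For Serpina9 they were Rcor2, Lrrc23, Pappa2, Trim59 and 2900005J15Rik (0.983 to 0.992), and of these 2900005J15Rik was called lower.

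**Figure D4:**
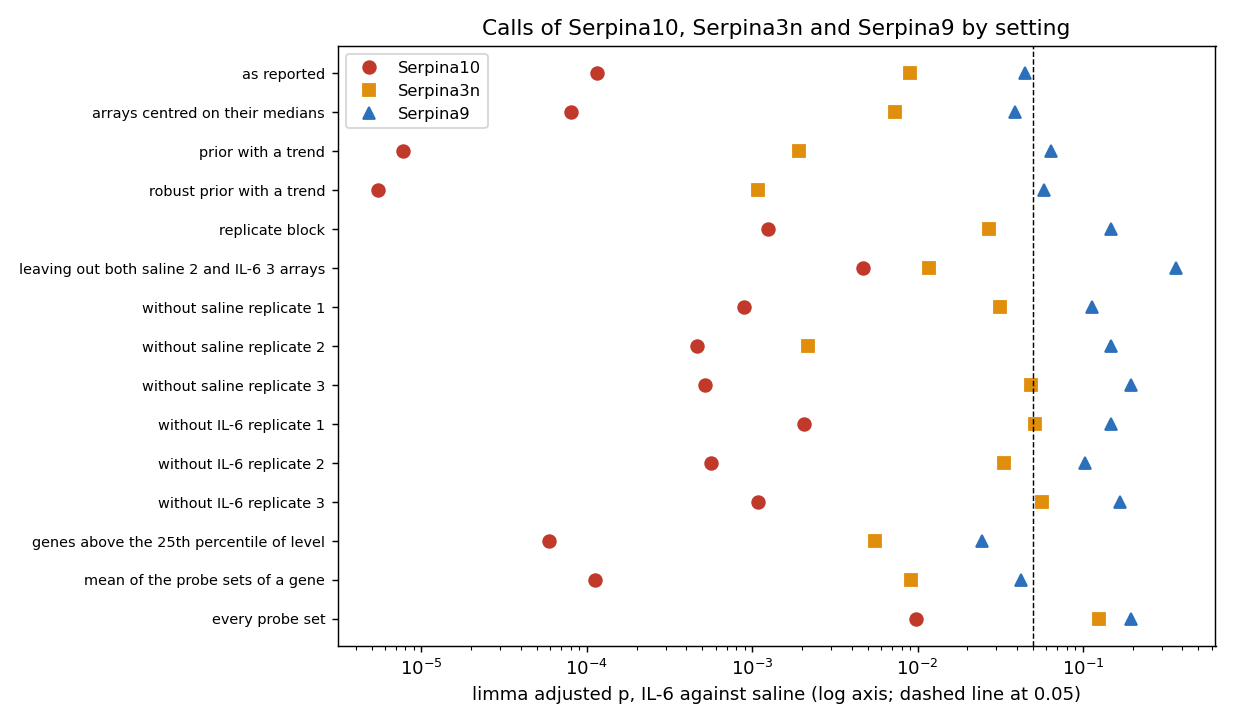
Limma adjusted p (log axis) of Serpina10, Serpina3n and Serpina9 as reported and under each other setting, with the threshold of 0.05 dashed. Serpina10 stays left of the line in every setting shown, Serpina3n crosses it in 3, and Serpina9 is right of it in 11.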

How the data were processed

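Transcripts were measured in 6 liver arrays, 3 after IL-6 and 3 after saline. The deposited values are log2 expression per probe set made by the authors with RMA, per the submitters' processing notes; for RMA's version, its settings and the array's build the answer is "not given in the sources used here". RMA equalizes the arrays' distributions and can compress large differences. Of 35556 probe sets, the platform table gave 1 symbol to 21789 and several to 1621, and 12146 were unnamed here. The probe set with the highest mean was kept for each of 19938 genes, with no filter. The groups were compared, IL-6 minus saline, by limma 3.58.1 in R 4.3.3 (lmFit, eBayes), two-sided, with Benjamini-Hochberg adjustment over all genes, or over all probe sets for shared ones; the code was checked on simulated data. The number of arrays limits precision: the median standard error was 0.089, and an exact permutation test of 3 against 3 cannot give p under 0.1. Members and gene lists were chosen with earlier results of these data known. Named genes were the members, shared Serpina probe sets, called list genes or otherwise the 2 of smallest p, and the 5 genes most correlated with each called member. Proz, Serpinc1, Serpind1, Serpinf2, Serping1, Serpina4-ps1, the flanking genes and the other measured Serpina genes were added for context after values were seen. So were the measured B cell and adipocyte markers. Same-numbered arrays of the groups had deviations that correlated at 0.076, -0.116 and -0.087, so the numbers were not treated as pairs. Figures were drawn with matplotlib 3.10.9.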

Additional observations from a re-analysis of the deposited data

How the results depend on the processing

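Serpina10 and Serpina7 kept their direction and their side of the threshold in all 14 alternatives, and Serpina3n in 11 of 14. In place of 2 members called higher, 1 was called without IL-6 replicate 1 or 3 (range 1 to 2 over the arrays left out) and when every probe set was tested. In place of 1 called lower, 0 were called with a variance prior with a trend, with a robust one, with the replicate block, without both arrays set apart, without any single array (0 in each), and over every probe set. Serpina9 kept its call with arrays centred on their medians, without dim genes and with probe sets averaged per gene (limma adjusted p 0.0245 to 0.0425), but it passed the filter on dim genes through its saline level, so that setting is no support. Over all genes, 77 higher and 7 lower became 31 and 2 without both arrays set apart, 16 and 1 over every probe set, and 45 to 67 and 3 to 5 with an array left out. With the replicate block 59 genes were higher, 6 lower, and Serpina10 and Serpina3n were called. Signs turned only for values near 0 or resting on 1 saline array. Serpina1c was -0.0017 without both arrays, and -0.0274 to 0.0835 with 1 array left out. Serpina6 was -0.20 without both arrays, and -0.11 to 0.81 with 1 left out, and Serpina12 was -0.0275 to 0.67. With arrays centred, shared probe set 10402399 was 0.0073 and 10402409 was 0.015, and 10402409 ran from -0.012 to 0.0078 with 1 array left out. Background could not be assessed per probe set. The cause of these shifts was not tested beyond the arrays or features named.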
